A study of Rattus norvegicus with 18 samples.

Results

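A set of 9 genes that answer fasting, the PPAR receptors or glucocorticoids, namely Pdk4, Klf15, Sgk1, Ppargc1a, Angptl4, Cpt1a, Fkbp5, Tsc22d3 and Ppara, was followed across 18 Affymetrix rat arrays of jejunal mucosa. They were picked by symbol, as the probe sets whose annotation gave exactly 1 gene symbol equal to one of the names, and they are 9 of the 14217 genes measured in this way, with 16 probe sets. The names were chosen with a difference between abemaciclib at 36 mg/kg/day and vehicle already known, in which Pdk4, Klf15 and Sgk1 were low. Values of that comparison are therefore given for all 9 genes as a description with no test, and so are those of Pdk4, Klf15 and Sgk1 in other comparisons that use the abemaciclib 36 arrays.

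RNA came from mucosa scraped off the jejunum, which lies between duodenum and ileum in the small intestine, of male Sprague Dawley rats aged 6 to 8 weeks that carried no named allele. There were 3 arrays in each of 6 groups, gavaged daily with abemaciclib at 120 mg/kg/day, abemaciclib at 36 mg/kg/day, ribociclib at 300 mg/kg/day, palbociclib at 100 mg/kg/day, palbociclib at 30 mg/kg/day, or 0.5% methyl cellulose alone as vehicle. All 3 drugs are inhibitors of the cyclin-dependent kinases CDK4 and CDK6, which drive cells into the cell cycle. Groups are named below by drug and dose, so that abemaciclib 120 means 120 mg/kg/day, and the letters A to C name arrays within a group.

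The design bears on each comparison with vehicle. Methyl cellulose was the carrier of palbociclib, while abemaciclib and ribociclib were given in hydroxypropyl methylcellulose with tween in citrate buffer, so for those drugs compound and carrier cannot be told apart against vehicle. Comparisons between abemaciclib and ribociclib, and between doses of a drug, do not carry that difference. Dosing lasted 4 or 15 days, and no label assigns an array to either. For abemaciclib 120 B the title gives 100 mg/kg/day, and the treatment label, which was used, gives 120. All comparisons with vehicle share the same vehicle arrays. In scraped tissue, fewer cells of a type and less RNA per cell cannot be told apart.

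Fasting raises fatty acids and glucocorticoids in the blood, and both reach the gut wall. Fatty acids bind PPAR receptors such as the product of Ppara, which with the coactivator encoded by Ppargc1a turns on genes for fat oxidation. Glucocorticoids bind the receptor encoded by Nr3c1, which enters the nucleus and acts on genes such as Fkbp5, Tsc22d3, Sgk1 and Klf15. Several of the 9 genes answer more than 1 signal: Pdk4 and Angptl4 are known targets of PPARs, of glucocorticoids and, for Pdk4, of FoxO factors.

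The promoters are shown for the genes whose results are described first and for the start sites that held a searched motif. The RefSeq table (build GRCr8) holds 13 promoters of the 9 genes, each 250 bases before and 50 after a start site. Of these, 1 promoter of Ppargc1a (chr14:63634058-63634357, plus strand, inside the annotated gene) holds the cAMP response element TGACGTCA at position -181 from the start, and 1 of the 3 promoters of Tsc22d3 (chrX:109009985-109010284, minus strand) holds the FoxO site GTAAACA in reverse as TGTTTAC at position -162. The promoter of Pdk4 (chr4:34568280-34568579, minus strand) held none of the motifs. They read 5′ to 3′, with the motif in capitals.
Ppargc1a: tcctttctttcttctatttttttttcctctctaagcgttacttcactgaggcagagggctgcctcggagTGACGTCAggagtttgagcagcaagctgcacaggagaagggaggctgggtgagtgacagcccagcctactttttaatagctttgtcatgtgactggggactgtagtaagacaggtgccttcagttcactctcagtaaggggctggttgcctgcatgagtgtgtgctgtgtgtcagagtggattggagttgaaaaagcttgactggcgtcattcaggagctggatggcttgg
Tsc22d3: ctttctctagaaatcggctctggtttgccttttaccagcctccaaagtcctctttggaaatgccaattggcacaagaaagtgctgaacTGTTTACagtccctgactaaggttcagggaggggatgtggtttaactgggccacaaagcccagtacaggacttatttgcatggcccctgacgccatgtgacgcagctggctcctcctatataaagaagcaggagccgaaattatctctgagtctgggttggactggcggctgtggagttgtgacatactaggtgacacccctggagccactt
Pdk4: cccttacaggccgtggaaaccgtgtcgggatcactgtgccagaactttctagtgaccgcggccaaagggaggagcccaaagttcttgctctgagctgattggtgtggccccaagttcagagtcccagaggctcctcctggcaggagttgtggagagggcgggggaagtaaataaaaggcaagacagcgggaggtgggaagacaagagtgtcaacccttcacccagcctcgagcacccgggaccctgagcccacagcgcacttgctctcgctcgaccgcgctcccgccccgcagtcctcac
Both strands were searched, and the motifs do not overlap one another except that the glucocorticoid response element contains its half-site. Of all 33469 promoters in the table, 1.83% hold the cAMP response element and 3.78% the FoxO site. The glucocorticoid response element, written as AGAACA, any 3 bases and TGTTCT, is in 0.0149% of them and its half-site TGTTCT in 20.7%. The PPAR response element, AGGTCA, any base and AGGTCA, is in 0.0538%. None of these last 3 motifs was in any of the 13 promoters, which shows only that the letters are not in these windows.

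The arrays had medians of 5.40 to 5.51 on the log2 scale, no 2 were identical, and their correlations with one another were 0.918 to 0.993. Abemaciclib 36 B was closer to the vehicle arrays (mean r = 0.979) than to its own group (0.969), and so were ribociclib 300 A (0.970 and 0.959) and palbociclib 30 C (0.991 and 0.984). Abemaciclib 120 B, whose title gives another dose, had a mean r with vehicle of 0.962, against 0.940 for A and 0.951 for C. Within its group it lay nearest the vehicle mean for Pdk4, Klf15, Sgk1, Ppargc1a, Cpt1a, Fkbp5 and Tsc22d3, but not for Angptl4 and Ppara. The 3′ minus 5′ difference of beta-actin probe sets, a sign of RNA quality, was 0.862 to 1.05 in abemaciclib 120 and 0.571 to 0.793 in vehicle. Enterocyte markers, all 12 of them measured, averaged 13.1 to 13.4 on the log2 scale in vehicle, far above the array medians, and 1 of the 12 was lower with abemaciclib 120. Their average with abemaciclib 120 was 12.6 to 13.0, below every vehicle array. Their median log2 difference was -0.28, against -0.02 over all genes. With abemaciclib 120, 7 of 9 crypt and cycling markers were higher and 9 of 11 T and NK cell markers and 6 of 10 macrophage and dendritic cell markers were lower. Of all genes, 9.6% were higher and 8.41% lower in that comparison. The log2 summed signal of the T and NK markers was 9.32 to 10.2 with abemaciclib 120, 10.1 to 12.5 with ribociclib 300 and 12.6 to 13.0 in vehicle. That of the crypt markers was 12.3 to 12.8 with abemaciclib 120 and 10.4 to 10.9 in vehicle. The part of these shifts in the results below was not tested. Adipocyte markers, of which 1 of 6 was lower with abemaciclib 120, summed to 8.03 to 8.33 with that dose and 9.31 to 9.44 in vehicle.

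Ppargc1a, Tsc22d3, Pdk4, Angptl4 and Klf15 were lower and Fkbp5 and Cpt1a higher with abemaciclib 120 than with vehicle. Thus 7 of the 9 genes were called, 2 higher and 5 lower, where called means an adjusted p under 0.05 in limma over all genes. Of all 14217 genes, 18% were called in this comparison, 9.6% higher and 8.41% lower. The median log2 difference of the 9 genes was -1.63, against -0.02 over all genes. With ribociclib 300, 3 of the 9 were called against vehicle, Fkbp5 higher and Ppargc1a and Angptl4 lower, where 3.73% of all genes were called, 0.999% higher and 2.74% lower. The median of the 9 was then -0.77, against 0.00 over all genes. Pdk4, Klf15 and Sgk1 were chosen as low against these same vehicle arrays. The counts and medians against vehicle are therefore not independent of that choice. The count of 7 fell to 3 without vehicle C and to 4 without vehicle A, abemaciclib 120 A or abemaciclib 120 C. Arrays that do not overlap vehicle are described below for single genes, and were common among all 14217. There were 5301 such genes with abemaciclib 120, 2884 with abemaciclib 36, 3466 with ribociclib 300 and 2701 with palbociclib 100.

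**Figure D1:**
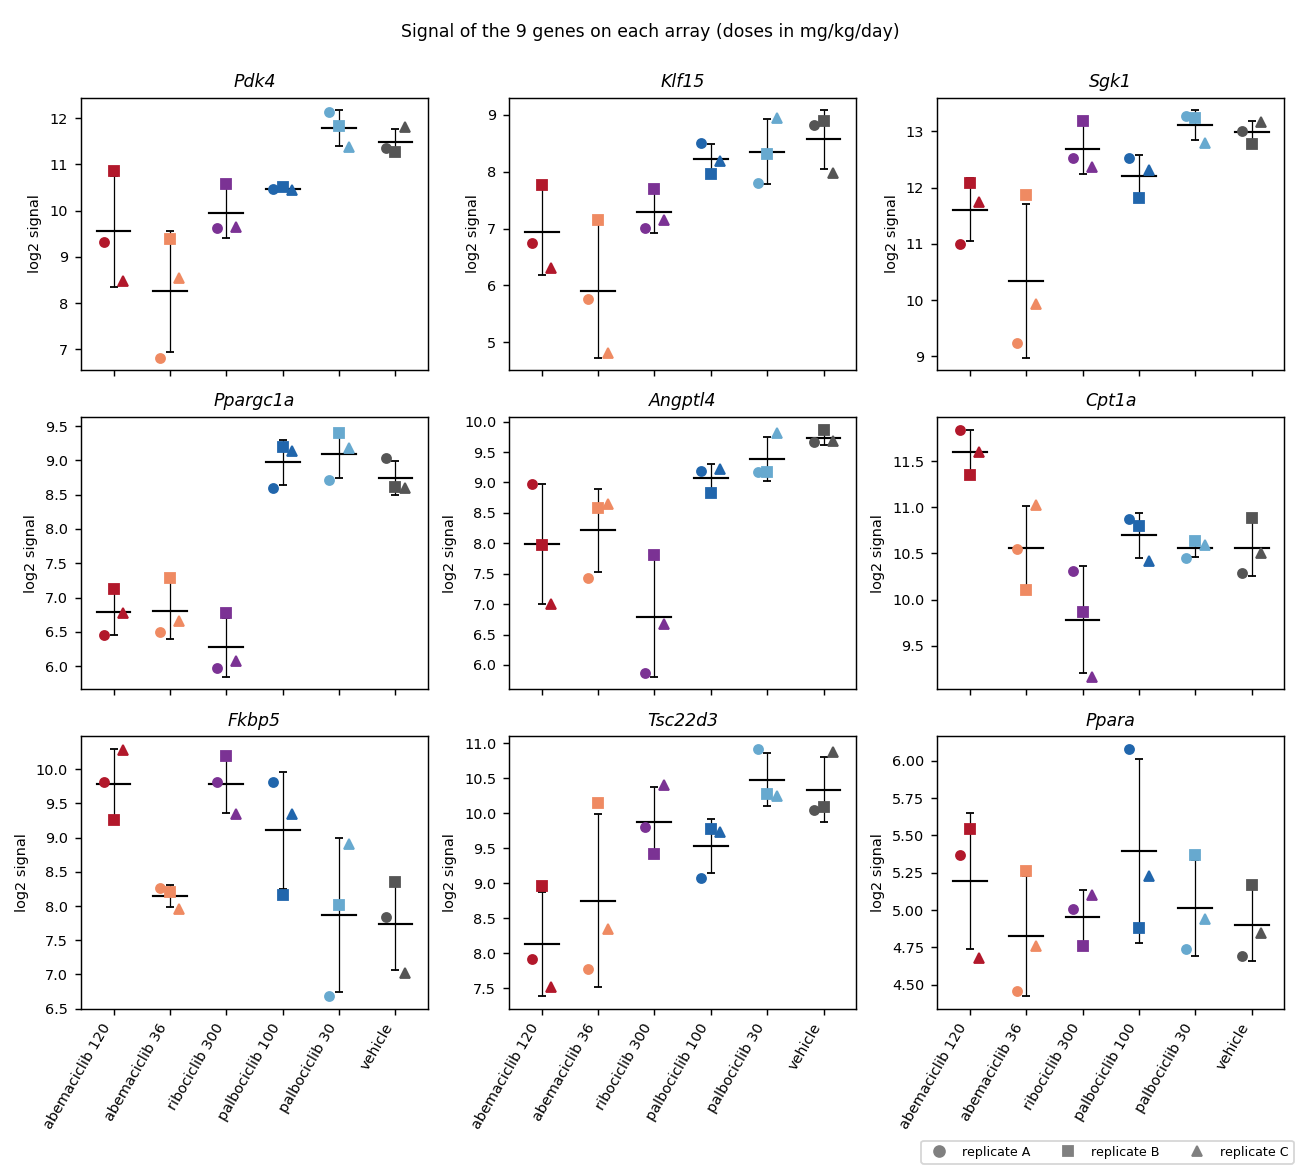
Log2 signal of each gene on each array, 1 panel per gene and 1 column per group with doses in mg/kg/day. Points are arrays, with a circle, square and triangle for replicates A, B and C, the horizontal line is the group mean and the bar 1 SD (n = 3). Ppargc1a lies between 5.97 and 7.28 on the 9 abemaciclib and ribociclib arrays and between 8.59 and 9.40 on the 9 palbociclib and vehicle arrays.

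Ppargc1a, the coactivator that ties PPARs and other receptors to mitochondrial genes, separated the groups into a low and a high set. Its log2 signal on arrays A, B and C was 6.46, 7.13 and 6.78 with abemaciclib 120, 6.49, 7.28 and 6.66 with abemaciclib 36, and 5.97, 6.77 and 6.08 with ribociclib 300. It was 8.59, 9.19 and 9.13 with palbociclib 100, 8.71, 9.40 and 9.18 with palbociclib 30, and 9.03, 8.61 and 8.60 in vehicle. Every abemaciclib and ribociclib array was thus below every palbociclib and vehicle array. The mean fell to 6.79 ± 0.33 with abemaciclib 120, against 8.75 ± 0.25 in vehicle (SD, n = 3), a 3.88-fold lower signal (log2 difference -1.96, SE 0.28, adjusted p = 0.000274 in limma). With ribociclib 300 it was 5.54-fold lower than vehicle (-2.47, SE 0.28, adjusted p = 0.000547 in limma). Both calls held in all 15 alternatives tried, with highest adjusted p of 0.00261 and 0.0263.

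The symbol Ppargc1a is carried by 3 probe sets, and all 3 were called in both comparisons. With abemaciclib 120 their log2 differences from vehicle were -1.96, -2.10 and -2.08, and with ribociclib 300 they were -2.47, -3.10 and -3.30. Adjusted over all probe sets in limma, p was 0.000334 to 0.00343 for abemaciclib 120 and 0.000753 to 0.000987 for ribociclib 300. Palbociclib 100 differed from vehicle by 0.22 (95% interval -0.38 to 0.83) and palbociclib 30 by 0.35 (-0.25 to 0.95), and neither passed the test.

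Ppara, the receptor itself, was dim. Its signal was between 4.46 and 6.08 over all 18 arrays, near or below the array medians, and the groups overlapped throughout. No comparison of it passed the test, and the 95% interval of abemaciclib 120 minus vehicle was -0.32 to 0.91. Its level was not shown to be above background.

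Pdk4 encodes the kinase that switches off pyruvate dehydrogenase and so spares glucose in fasting. Its signal was 9.32, 10.85 and 8.49 with abemaciclib 120, 6.82, 9.39 and 8.55 with abemaciclib 36, and 9.63, 10.57 and 9.64 with ribociclib 300. It was 10.47, 10.52 and 10.45 with palbociclib 100, 12.14, 11.84 and 11.37 with palbociclib 30, and 11.35, 11.26 and 11.82 in vehicle. All arrays of abemaciclib, ribociclib and palbociclib 100 lay below all vehicle arrays. Abemaciclib 120 was 3.79-fold lower than vehicle (-1.92, SE 0.56, adjusted p = 0.0261 in limma). The call was lost without vehicle A, vehicle C, abemaciclib 120 A or abemaciclib 120 C (adjusted p = 0.0583, 0.101, 0.098 and 0.125) and with the RNA quality covariate (0.0964). The other probe set of Pdk4 was 5.13-fold lower (adjusted p = 0.00159 over all probe sets in limma).

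For ribociclib 300 the probe sets of Pdk4 disagreed at the threshold. The brighter one was 2.89-fold lower than vehicle (-1.53, SE 0.56) and missed the threshold in limma (adjusted p = 0.138), while the other was 3.56-fold lower and passed over all probe sets (adjusted p = 0.0334). The 2 probe sets had an r of 0.967 over the 18 arrays. Palbociclib 100 arrays did not overlap vehicle either, but the 95% interval of the log2 difference was -2.19 to 0.19, and the test was not passed (adjusted p = 0.724 in limma).

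Angptl4, a secreted inhibitor of lipoprotein lipase, was lowest with ribociclib. Its signal was 8.98, 7.98 and 7.0 with abemaciclib 120, 7.43, 8.58 and 8.64 with abemaciclib 36, and 5.86, 7.81 and 6.67 with ribociclib 300. It was 9.19, 8.83 and 9.22 with palbociclib 100, 9.18, 9.17 and 9.81 with palbociclib 30, and 9.66, 9.87 and 9.68 in vehicle. No array of abemaciclib, ribociclib or palbociclib 100 reached the vehicle range. Ribociclib 300 was 7.77-fold lower than vehicle (-2.96, SE 0.48, adjusted p = 0.00494 in limma), and the call was lost with only those groups in the fit (0.0565). Abemaciclib 120 was 3.37-fold lower (-1.75, SE 0.48, adjusted p = 0.0183 in limma), a call lost without abemaciclib 120 C (0.0938), vehicle B (0.0564) or vehicle C (0.0541). The direct difference of abemaciclib 120 minus ribociclib 300, 1.21 (95% interval 0.19 to 2.22), did not pass in limma (adjusted p = 0.0728), but did without abemaciclib 120 C (0.0223) or ribociclib 300 B (0.0204).

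Cpt1a, which loads long-chain fatty acids for entry into mitochondria and is a PPAR target, went the other way with abemaciclib 120. Its signal was 11.84, 11.35 and 11.60 with abemaciclib 120, 10.55, 10.10 and 11.02 with abemaciclib 36, and 10.31, 9.87 and 9.16 with ribociclib 300. It was 10.87, 10.80 and 10.42 with palbociclib 100, 10.45, 10.63 and 10.59 with palbociclib 30, and 10.29, 10.88 and 10.50 in vehicle. The abemaciclib 120 arrays stood above all others. Against vehicle they were 2.06-fold higher (1.04, SE 0.27, adjusted p = 0.0145 in limma). That call was lost without vehicle A (0.0663), vehicle C (0.0548) or abemaciclib 120 A (0.0769), and with the mean of the gene's probe sets (0.0568). The other probe set of Cpt1a differed by 0.55 and did not pass over all probe sets (adjusted p = 0.279 in limma). Ribociclib 300 differed from vehicle by -0.77 (SE 0.27) and missed the threshold in limma (adjusted p = 0.125), but passed it without ribociclib 300 A (-1.04, adjusted p = 0.0296).

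**Figure D2:**
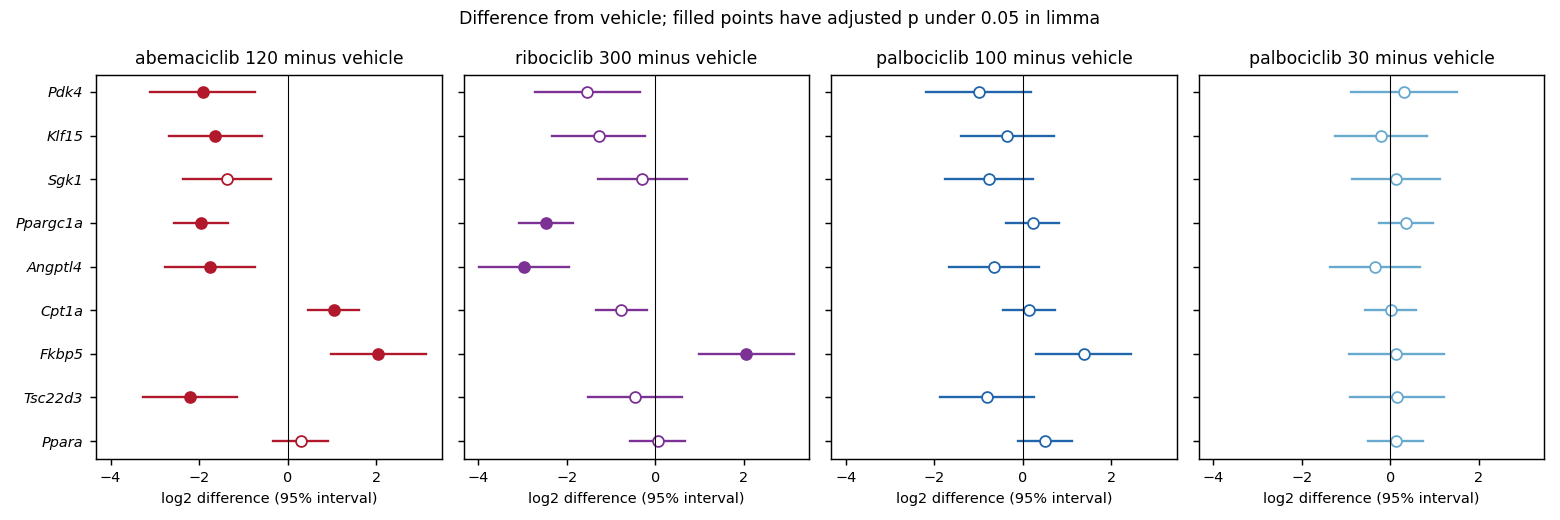
Log2 difference from vehicle of each gene, 1 panel per comparison, with doses in mg/kg/day and 95% intervals from the limma model. Filled points had an adjusted p under 0.05. With abemaciclib 120, 7 points are filled, with ribociclib 300, 3, and with palbociclib, none. The abemaciclib 36 comparison is not drawn because it is given for these genes as a description.

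Fkbp5 encodes a co-chaperone that binds the glucocorticoid receptor complex and dampens hormone binding, and its transcription is raised by glucocorticoids. Its signal was 9.82, 9.26 and 10.28 with abemaciclib 120, 8.27, 8.21 and 7.96 with abemaciclib 36, and 9.82, 10.19 and 9.35 with ribociclib 300. It was 9.81, 8.16 and 9.35 with palbociclib 100, 6.68, 8.02 and 8.91 with palbociclib 30, and 7.84, 8.35 and 7.02 in vehicle. Abemaciclib 120 and ribociclib 300 arrays lay above every vehicle array, and palbociclib arrays were spread widely. Abemaciclib 120 was 4.13-fold higher than vehicle (2.05, SE 0.51, adjusted p = 0.0101 in limma), a call lost without vehicle C (0.0634). Ribociclib 300 was 4.14-fold higher (2.05, SE 0.51, adjusted p = 0.0376 in limma). The ribociclib call was lost in 8 of 15 alternatives, including leaving out vehicle A (0.0833), vehicle B (0.0661), vehicle C (0.152), ribociclib 300 B (0.0899) or ribociclib 300 C (0.0565). The dimmer probe set of Fkbp5 passed in neither comparison (log2 differences of 1.56 and 1.83, adjusted p = 0.0918 and 0.104 over all probe sets in limma).

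Tsc22d3 encodes GILZ, the glucocorticoid-induced leucine zipper protein, which curbs inflammatory signalling in immune cells. Its signal was 7.92, 8.96 and 7.51 with abemaciclib 120, 7.77, 10.14 and 8.34 with abemaciclib 36, and 9.81, 9.41 and 10.41 with ribociclib 300. It was 9.08, 9.78 and 9.73 with palbociclib 100, 10.92, 10.28 and 10.24 with palbociclib 30, and 10.04, 10.09 and 10.87 in vehicle. The abemaciclib 120 arrays did not overlap vehicle, and abemaciclib 36 B reached the vehicle range. Abemaciclib 120 was 4.62-fold lower than vehicle (-2.21, SE 0.50, adjusted p = 0.00588 in limma), and this held in all 15 alternatives (highest adjusted p = 0.0377). Ribociclib 300 differed by -0.45 (95% interval -1.51 to 0.60) and did not pass. So, of these glucocorticoid-responsive genes, Fkbp5 was higher and Tsc22d3 lower with the same dose of abemaciclib. Immune cell markers were also low with abemaciclib 120, and their part in the Tsc22d3 result was not tested.

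Sgk1, a kinase that glucocorticoids and mineralocorticoids induce and that keeps epithelial sodium channels at the surface, was bright in every group. Its signal was 10.99, 12.08 and 11.75 with abemaciclib 120, 9.23, 11.87 and 9.93 with abemaciclib 36, and 12.52, 13.19 and 12.36 with ribociclib 300. It was 12.52, 11.81 and 12.31 with palbociclib 100, 13.28, 13.24 and 12.80 with palbociclib 30, and 13.01, 12.78 and 13.16 in vehicle. All abemaciclib and palbociclib 100 arrays were below the vehicle range, and ribociclib arrays overlapped it. Abemaciclib 120 was 2.59-fold lower than vehicle (-1.37, SE 0.47), just short of the threshold in limma (adjusted p = 0.0538). It passed without abemaciclib 120 B (0.0461) and under 4 other alternatives, of which the lowest adjusted p, with only those groups in the fit, was 0.00741.

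Klf15 is a transcription factor that glucocorticoids and fasting induce and that acts on amino acid and glucose metabolism. It had its lowest mean with abemaciclib 36, as Pdk4 did, where both genes were already known to be low. Its signal was 6.74, 7.77 and 6.30 with abemaciclib 120, 5.76, 7.16 and 4.81 with abemaciclib 36, and 7.02, 7.70 and 7.15 with ribociclib 300. It was 8.50, 7.97 and 8.19 with palbociclib 100, 7.80, 8.32 and 8.95 with palbociclib 30, and 8.83, 8.90 and 7.98 in vehicle. No abemaciclib or ribociclib array reached the vehicle range. Palbociclib 100 arrays overlapped vehicle for Klf15 (-0.35), which they did not for Pdk4. Abemaciclib 120 was 3.10-fold lower (-1.63, SE 0.49, adjusted p = 0.0309 in limma), a call lost without vehicle A (0.0999), vehicle B (0.102), abemaciclib 120 A (0.109) or abemaciclib 120 C (0.124) and with the RNA quality covariate (0.105). Ribociclib 300 was 2.43-fold lower and did not pass in limma (-1.28, SE 0.49, adjusted p = 0.157). Another probe set of Klf15 fell with abemaciclib 120 (-1.23, adjusted p = 0.00546 over all probe sets in limma). The last, dim on every array, differed by -0.15 and did not pass (adjusted p = 0.347).

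**Figure D3:**
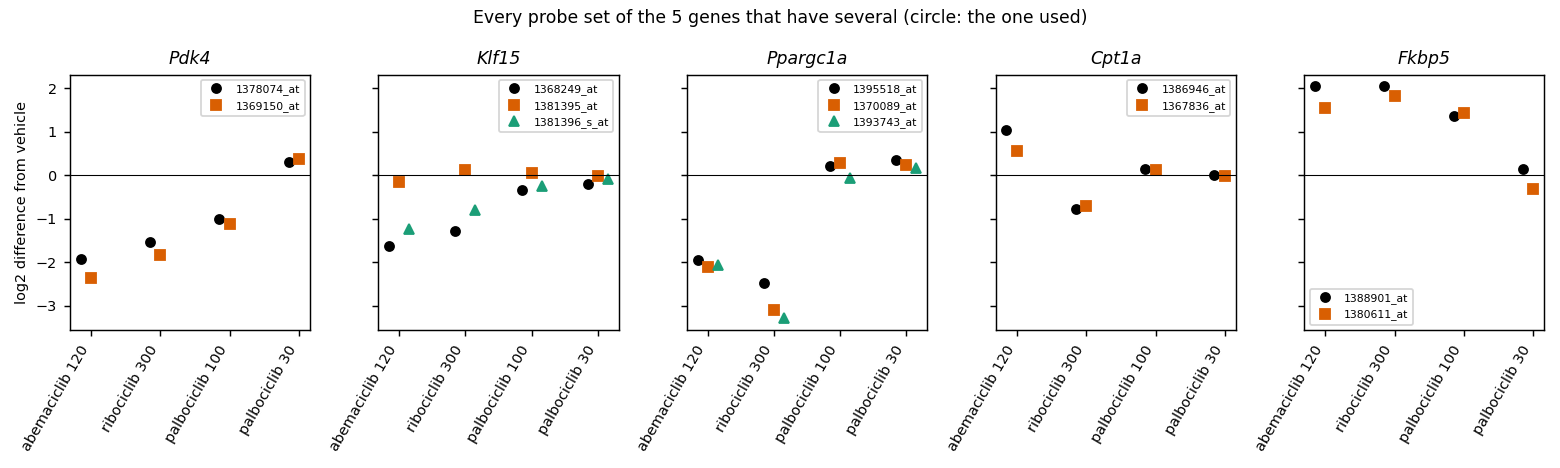
Log2 difference from vehicle of every probe set of the 5 genes that have several, 1 panel per gene and 1 column per tested comparison, with doses in mg/kg/day. The circle is the probe set used for the gene. The 3 probe sets of Ppargc1a lie between -1.96 and -3.30 with abemaciclib 120 and ribociclib 300, and 1 of the 3 of Klf15 stays near 0.

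With abemaciclib 36, in the comparison from which Pdk4, Klf15 and Sgk1 were known, these genes had log2 differences from vehicle of -3.23, -2.66 and -2.64, or 9.36-fold, 6.33-fold and 6.21-fold lower signals. Ppargc1a differed by -1.94, Angptl4 by -1.52 and Tsc22d3 by -1.58, while Cpt1a (0.00), Fkbp5 (0.41) and Ppara (-0.07) lay near the vehicle mean. The arrays varied within the group, with abemaciclib 36 B the highest of the 3 for Pdk4, Klf15, Sgk1, Ppargc1a and Tsc22d3. Without it the differences were -3.80 for Pdk4, -3.29 for Klf15, -3.40 for Sgk1, -2.17 for Ppargc1a and -2.28 for Tsc22d3.

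The dose comparison for abemaciclib asked whether the genes moved further at the higher dose. Of the 6 genes other than Pdk4, Klf15 and Sgk1, 1 was called between 120 and 36 mg/kg/day, Cpt1a, 2.05-fold higher at 120 (log2 difference 1.04, SE 0.27, adjusted p = 0.0281 in limma), where 7.59% of all genes were called, 4.82% higher and 2.77% lower. The call was lost in 7 of 15 alternatives, among them leaving out abemaciclib 36 A (0.084), abemaciclib 36 B (0.134), abemaciclib 120 A (0.144) or abemaciclib 120 C (0.072). Ppargc1a differed between the doses by -0.02 on the log2 scale (95% interval -0.62 to 0.58). Pdk4, Klf15 and Sgk1 had higher means at 120 than at 36 mg/kg/day, by 1.31, 1.03 and 1.26, with overlapping arrays. They were chosen as low with abemaciclib 36, so nothing is read from this. Fkbp5 was 3.11-fold higher at the higher dose with no overlap of arrays, and missed the threshold in limma (adjusted p = 0.0595) except without abemaciclib 120 B (0.0497) or with only those groups in the fit (0.0387). Arrays of 3352 of all 14217 genes did not overlap between the doses. In the same comparison 6 of 9 crypt and cycling markers were higher, and 7 of 11 T and NK cell markers and 8 of 10 macrophage and dendritic cell markers lower, and their part in these results was not tested.

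Abemaciclib and ribociclib shared a carrier but not a dose, so their difference joins compound and dose. Abemaciclib 120 minus ribociclib 300 called 2 of the 9 genes, 1 in each direction, where 27.2% of all genes were called, 17.2% higher and 10% lower. Cpt1a was 3.51-fold higher with abemaciclib 120 (1.81, SE 0.27, adjusted p = 0.000538 in limma), which held in all 15 alternatives (highest adjusted p = 0.0235), and its other probe set passed too (1.26, adjusted p = 0.00896 over all probe sets). Tsc22d3 was 3.37-fold lower with abemaciclib 120 (-1.75, SE 0.50, adjusted p = 0.0171 in limma), a call lost without abemaciclib 120 A (0.066), abemaciclib 120 C (0.0744) or ribociclib 300 C (0.0769) and with the RNA quality covariate (0.0642). Sgk1 arrays did not overlap either (-1.08, SE 0.47), which missed the threshold in limma (adjusted p = 0.0972) and passed it with each array centred on its median (0.0306). Arrays of 5314 of all 14217 genes did not overlap in this comparison. For Fkbp5 the difference was -0.00 with an interval of -1.08 to 1.07. Ppargc1a differed by 0.51 (-0.09 to 1.11, adjusted p = 0.187 in limma), although 1 of its 3 probe sets passed (1.22, adjusted p = 0.0477 over all probe sets).

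In abemaciclib 36 minus ribociclib 300, Sgk1, Pdk4 and Klf15 had log2 differences of -2.35, -1.69 and -1.38, and the arrays did not overlap for Sgk1 and Pdk4. Arrays of 1804 of all 14217 genes did not overlap there. Of the 6 genes other than Sgk1, Pdk4 and Klf15, 0 were called in limma, where 0.38% of all genes were called, 0.155% higher and 0.225% lower. An unadjusted p under 0.05 in limma was seen for 4 of these 6, and for 2547 of all 14217 genes. The 4 were Fkbp5 (-1.64, adjusted p = 0.135), Angptl4 (1.44, 0.157), Cpt1a (0.77, 0.171) and Tsc22d3 (-1.13, 0.25). Tsc22d3 (0.0203) and Cpt1a (0.0476) passed without abemaciclib 36 B, and Cpt1a (0.0264) without ribociclib 300 A.

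Palbociclib called none of the 9 genes in limma at either dose, where 0% of all genes were called with palbociclib 100 and 0% with palbociclib 30. At an unadjusted p under 0.05, 1 of the 9 lay below it with palbociclib 100, Fkbp5 (1.37, 95% interval 0.30 to 2.44, adjusted p = 0.653), and 0 with palbociclib 30. Of all 14217 genes, 1023 lay below it with palbociclib 100 and 357 with palbociclib 30. Arrays of palbociclib 100 did not overlap vehicle for 4 of the 9, Pdk4, Sgk1, Angptl4 and Tsc22d3, all lower, where 19% of all genes had no overlap. The differences of Sgk1, Angptl4 and Tsc22d3 were -0.77, -0.66 and -0.81, and their 95% intervals all reached above 0. Palbociclib 30 differed from vehicle by -0.35 for Angptl4 at the low end and 0.35 for Ppargc1a at the high end, and arrays overlapped for all 9. Between palbociclib 100 and 30 no gene was called (0% of all genes), and 3 of the 9 had no overlap, Pdk4 (-1.31), Sgk1 (-0.89) and Tsc22d3 (-0.95), where 13.4% of all genes had none.

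Ranked by group mean, Pdk4 ran from palbociclib 30 and vehicle at the top through palbociclib 100, ribociclib 300 and abemaciclib 120 to abemaciclib 36 at the bottom. Vehicle and palbociclib 100 were the only neighbours in that order whose arrays did not overlap. For Ppargc1a the break lay between vehicle and abemaciclib 36, for Angptl4 between palbociclib 100 and abemaciclib 36, for Klf15 between palbociclib 100 and ribociclib 300, and for Cpt1a between abemaciclib 120 and palbociclib 100. Neighbouring groups of Sgk1, Fkbp5, Tsc22d3 and Ppara all overlapped. Pdk4, Klf15 and Sgk1 were chosen as low with abemaciclib 36, so nothing is read from that group's place in their orders.

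Of 17 measured nuclear receptors and coregulators around these genes, 1 was higher and 2 were lower with abemaciclib 120 than with vehicle, at a median of -0.11. In that comparison 18% of all genes were called, 9.6% higher and 8.41% lower, at a median of -0.02. Pparg, the PPAR of fat cells and macrophages, was 3.59-fold lower (-1.84, SE 0.48, adjusted p = 0.0143 in limma). The summed macrophage and dendritic cell markers were also low there, at 9.53 to 11.0 with abemaciclib 120 and 12.9 to 13.2 in vehicle. Their part in the Pparg result was not tested. Nr3c1, the glucocorticoid receptor, was 1.79-fold lower (-0.84, SE 0.27, adjusted p = 0.0425), and Hsd11b2, which inactivates glucocorticoids, 3.18-fold higher (1.67, SE 0.50, adjusted p = 0.0300). With ribociclib 300 only Nr3c1 of the 17 was called, 2.16-fold lower (-1.11, SE 0.27, adjusted p = 0.0361 in limma), where 3.73% of all genes were called. Its signal was 8.42, 8.80 and 8.37 with abemaciclib 120, 7.91, 9.04 and 7.82 with ribociclib 300, and 9.27, 9.34 and 9.49 in vehicle, so neither group overlapped vehicle. Ppard, the broadly expressed PPAR, differed by -0.09 and 0.02 in these comparisons and did not pass.

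Of 25 measured fatty acid oxidation genes under PPAR control, 2 were higher and 5 lower with abemaciclib 120, at a median of -0.14. Among all genes 18% were called there, 9.6% higher and 8.41% lower, at a median of -0.02. Acot1, an acyl-CoA thioesterase, was 4.34-fold higher (2.12, adjusted p = 0.000547), with a vehicle signal below the array medians. Cyp4a1, a fatty acid hydroxylase, was 4.74-fold lower (adjusted p = 0.00479), the peroxisomal enzyme gene Ehhadh 2.73-fold lower (0.000187) and Acadm, the medium-chain acyl-CoA dehydrogenase, 2.39-fold lower (0.00218, all in limma). So Cpt1a was higher, as were Acot1 and Pex11a (2.19-fold, adjusted p = 0.0312 in limma). Cyp4a1, Ehhadh, Acadm, Acadl (1.33-fold, adjusted p = 0.0182) and Decr1 (1.84-fold, 0.0274, both in limma) were lower in the same arrays. Of the 25 genes, 18 were not called. With ribociclib 300, 2 of the 25 were lower, Eci2 (-1.14, adjusted p = 0.0298) and Etfdh (-0.69, adjusted p = 0.0463 in limma), where 2.74% of all genes were called lower. Among 20 lipid binding and storage genes, 2 were higher and 3 lower with abemaciclib 120, against 9.6% and 8.41% of all genes. Cd36, the fatty acid transporter, was 5.78-fold lower (-2.53, adjusted p = 0.000497) and Pnpla2, adipose triglyceride lipase, 2.17-fold lower (0.00202), while Hilpda, an inhibitor of that lipase, was 3.75-fold higher (0.0239) and Gdf15, a stress hormone, 1.54-fold higher (0.0279). With ribociclib 300, 1 of the 20 was called, where 3.73% of all genes were called. It was Gdf15, 2.17-fold higher (adjusted p = 0.00521 in limma), though below the array medians in both groups.

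Other glucocorticoid response genes were counted in the same way. With abemaciclib 120, 1 of 28 measured was higher and 4 were lower, at a median of -0.03. Among all genes 9.6% were higher and 8.41% lower there, at a median of -0.02. Cdkn1c, a cyclin-dependent kinase inhibitor, was 10.1-fold lower (-3.33, SE 0.59, adjusted p = 0.00106), Mt2A, a metallothionein, 8.14-fold lower (0.00381) and Lcn2, an iron-binding defence protein, 2.94-fold higher (0.00151, all in limma). Pck1, the gluconeogenic enzyme PEPCK, was 9.48-fold lower (-3.24, SE 0.99, adjusted p = 0.0325 in limma), with signals of 10.28, 11.62 and 6.50 with abemaciclib 120 against 12.44, 12.94 and 12.75 in vehicle. Those abemaciclib arrays ranged widely and all lay below vehicle. With ribociclib 300, 5 of the 28 were higher and 0 lower, at a median of 0.29, where 0.999% of all genes were higher and 2.74% lower. They included Ddit4, an inhibitor of mTORC1 (3.26-fold, adjusted p = 0.0182), Dusp1, a MAP kinase phosphatase (2.92-fold, 0.0467), the clock gene Per1 (1.73-fold, 0.0448) and the decoy receptor Il1r2, dim in both groups (1.86-fold, 0.0151, all in limma).

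In abemaciclib 120 minus ribociclib 300, 1 of the 28 was higher and 11 were lower, where 27.2% of all genes were called, at a median of -0.79 against -0.05 for all genes. In that comparison 8 of 9 crypt and cycling markers were higher, and 8 of 11 T and NK cell markers and 3 of 10 macrophage and dendritic cell markers lower, and their part in the counts was not tested. Lcn2 was the higher one (2.56-fold, adjusted p = 0.00337), and Mt2A (7.02-fold, 0.00499), Il1r2 (1.67-fold, 0.00775) and Per1 (1.76-fold, 0.00942, all in limma) were lower. Fkbp5 differed by -0.00 and Tsc22d3 by -1.75.

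Among 23 FoxO and fasting response genes, 2 were higher and 8 lower with abemaciclib 120, at a median of -0.26. Of all genes, 9.6% were called higher and 8.41% lower with abemaciclib 120, and 0.999% higher and 2.74% lower with ribociclib 300. Cited2, a transcriptional coregulator (2.97-fold, adjusted p = 0.000187), the atypical cyclin Ccng2 (3.06-fold, 0.000189), the stress sensor Sesn1 (3.01-fold, 0.000896) and the autophagy kinase Ulk1 (3.19-fold, 0.00114, all in limma) were lower. Foxo3, itself a FoxO factor, was 1.92-fold higher (0.94, SE 0.23, adjusted p = 0.0104 in limma). With ribociclib 300, 1 was higher and 3 were lower, namely Cited2 (3.23-fold lower, adjusted p = 0.00083), the gluconeogenic enzyme gene Fbp1 (2.54-fold lower, 0.0121) and Insr, the insulin receptor (2.25-fold lower, 0.0121). Foxo3 was the higher one, 3.13-fold (1.64, SE 0.23, adjusted p = 0.00198 in limma). With abemaciclib 36, where 2.08% of all genes were called, 0.499% higher and 1.58% lower, 1 of the 23 was higher, Foxo3 (2.20-fold, adjusted p = 0.0203), and 3 were lower, Cited2 (3.01-fold, 0.00188), Sesn1 (3.22-fold, 0.00583) and Ulk1 (2.31-fold, 0.0472, all in limma). Of the 14 genes of the pyruvate dehydrogenase complex and its regulators, 2 were lower with abemaciclib 120, where 8.41% of all genes were called lower. They were the sister kinase Pdk2 (3.54-fold, adjusted p = 0.000728) and the phosphatase Pdp2 (1.63-fold, 0.0369). Pdp2 was also the 1 gene of the 14 called with ribociclib 300 (1.90-fold lower, 0.0342) and with abemaciclib 36 (2.10-fold lower, 0.0207, all in limma). Palbociclib called no gene of any of these lists, where 0% of all genes were called at either dose.

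**Figure D4:**
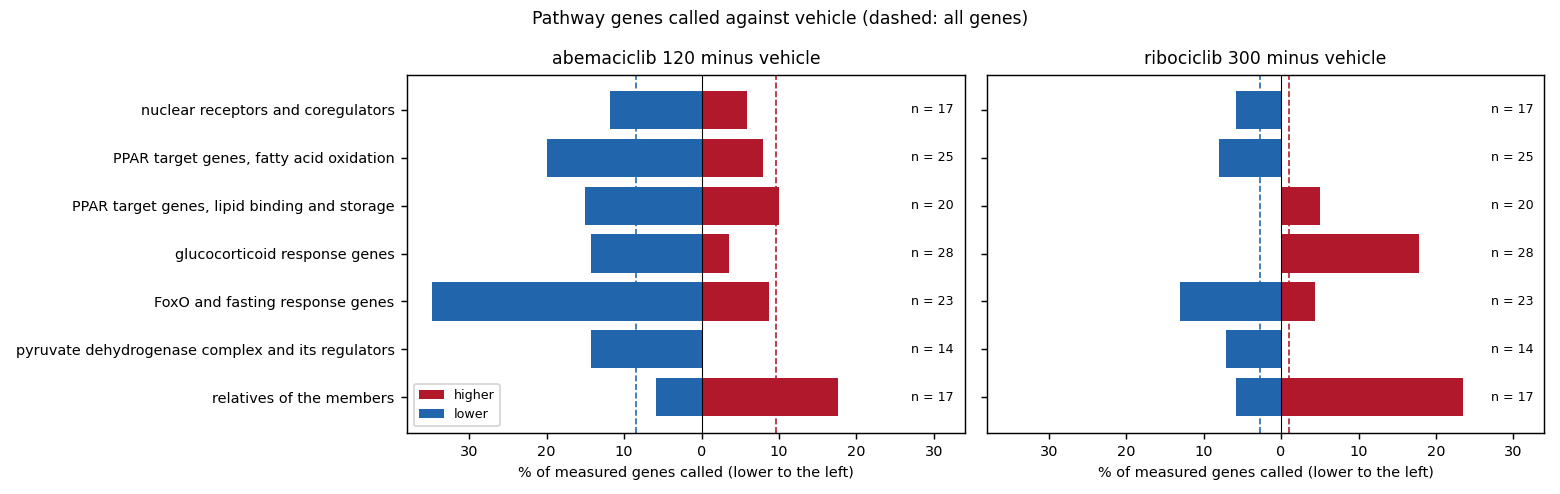
Percent of the measured genes of each of 7 pathway lists called higher (right) or lower (left) than vehicle, for abemaciclib 120 and ribociclib 300 in mg/kg/day, with the number measured at the right. Dashed lines give the percent of all genes called in each direction, 9.6% higher and 8.41% lower with abemaciclib 120 and 0.999% higher and 2.74% lower with ribociclib 300. The lower bar of the FoxO and fasting genes with abemaciclib 120 stands for 8 of 23.

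Over the 18 arrays, which share the group differences, the gene most like Pdk4 was Cdkn1b, a cyclin-dependent kinase inhibitor and FoxO target (Pearson r = 0.956, Spearman rho = 0.940, and 0.902 for deviations from group means). Ift46 (r = 0.931), Pck1 (0.914), Pias3 (0.909) and Stxbp3 (0.896) followed. Nearest to Klf15 were Lrat, which stores vitamin A as esters (0.906), Gucd1 (0.897), Rnft1 (0.895), Rit1 (0.889) and Tcta (0.877). Nearest to Sgk1 were Btg1 (0.914), Smad4 (0.910), Magi3 (0.909), Flvcr2 (0.906) and Tmem86a (0.902). Among the 9 genes themselves, Pdk4 and Sgk1 had an r of 0.88, and 0.73 within groups. Pdk4 and Klf15 had 0.83, and 0.43 within groups. Fkbp5 and Tsc22d3 ran opposite, at -0.52 both over all arrays and within groups. These correlations are descriptions of the same 18 arrays and were not tested.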

How the data were processed

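The deposited values are log2 signals, 1 per probe set and array. Per the submitters' processing notes Affymetrix Expression Console, Transcriptome Analysis Console and RMA were used, and versions and settings are not given in the sources used here. RMA as commonly run equalises the signal distribution of the arrays, so a change in total RNA per cell would not show. All columns were mapped to samples (0 not used). Of 31099 probe sets, 57 controls were left out, 20826 had 1 symbol, 436 had several and 9780 were unnamed in the platform annotation. A gene was read from its brightest probe set (by mean over the arrays), which left 14217 genes.

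The 18 arrays entered 1 fit with a mean for each group (limma 3.58.1, R 4.3.3, eBayes with an intensity trend, 12 residual degrees of freedom). Tests were two-sided, Benjamini-Hochberg adjusted across the 14217 genes within each comparison, and called at 0.05. Folds were computed from log2 differences, and intervals are 95%. SEs and intervals rest on the spread within groups pooled over all groups, not on the groups compared alone. Exact permutation of 3 against 3 arrays cannot go below p = 0.1. Other steps used Python 3.11.15, pandas 2.3.3, numpy 2.4.6 and matplotlib 3.10.9.

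The labels do not tie arrays to animals, so p-values reflect spread among arrays, which may be technical, and their number limits the precision. Samples were grouped by the treatment label. The genes and lists were chosen with earlier results of these data known. All 9 genes are named, with up to 4 genes of each list with the smallest p per comparison among those called, and the 5 genes most like Pdk4, Klf15 and Sgk1. Genes named outside that rule were chosen after their values were seen. Alternatives were quantile normalization, median centring, leaving out genes below the 30th percentile, the mean of probe sets, every probe set, no trend, only the groups compared, the replicate block, an RNA quality covariate and leaving out each array. Deviations of same-letter arrays of different groups correlated at -0.311 to 0.593 (median 0.0516, 45 pairs), against -0.525 to 0.427 (median -0.041, 90 pairs) for different letters, and since not every same-letter pair was over 0.1, letters were not treated as pairs. Promoter sequences came from the RefSeq table, and no other genome sequence and no proteins were used.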

Additional observations from a re-analysis of the deposited data

How the results depend on the processing

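The counts of the 9 genes called were 7 for abemaciclib 120 minus vehicle, 3 for ribociclib 300 minus vehicle, 1 for abemaciclib 120 minus abemaciclib 36, 2 for abemaciclib 120 minus ribociclib 300 and 1 for abemaciclib 36 minus ribociclib 300. The last is Sgk1, whose low level with abemaciclib 36 was known, and nothing is read from it. Leaving out 1 array in turn gave 3 to 8, 2 to 4, 0 to 2, 1 to 3 and 0 to 5 in the order of these comparisons. The low of 3 was reached without vehicle C and the 5 without abemaciclib 36 B. That 5 includes Pdk4, Klf15 and Sgk1. Without abemaciclib 36 B, the 2 genes called between the abemaciclib doses were Klf15 and Sgk1. Nothing is read from calls of Pdk4, Klf15 and Sgk1 in comparisons that use the abemaciclib 36 arrays. Their calls against vehicle share the vehicle arrays with the comparison from which they were chosen. The RNA quality covariate gave 5 for abemaciclib 120 minus vehicle, 2 for ribociclib 300 minus vehicle, 0 for abemaciclib 120 minus abemaciclib 36, 1 for abemaciclib 120 minus ribociclib 300 and 0 for abemaciclib 36 minus ribociclib 300. The mean of probe sets gave 0 for abemaciclib 120 minus abemaciclib 36. Without the intensity trend, abemaciclib 36 minus ribociclib 300 gave 0. With only the groups compared in the fit, abemaciclib 120 minus vehicle gave 8, ribociclib 300 minus vehicle 1 and abemaciclib 36 minus ribociclib 300 0. The cause of these changes was not tested. The replicate block gave 8 for abemaciclib 120 minus vehicle, where Sgk1 passed (adjusted p = 0.0467 in limma), and the main count in all other comparisons. The 3 palbociclib comparisons gave 0 under every alternative. No log2 difference of a called gene changed sign. Ppara had no value when dim genes were left out. Signals near the array medians, as for Ppara, were not shown to be above background.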

Other observations

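Close relatives of the 9 genes were taken from a list of 18, with 17 measured. With abemaciclib 120, 3 were higher and 1 was lower than vehicle, where 18% of all genes were called, 9.6% higher and 8.41% lower. The median of the 17 was -0.03, against -0.02 over all genes. Fkbp4, the sister co-chaperone of Fkbp5 in the glucocorticoid receptor complex, was 2.91-fold higher (1.54, SE 0.36, adjusted p = 0.00755 in limma). Klf10 was 1.84-fold higher (adjusted p = 0.00337) and Angptl8, a partner of angiopoietin-like proteins in lipase control, 2.19-fold higher (0.025), while Cpt1b, the muscle form of the Cpt1a enzyme, was 1.57-fold lower (0.0389, all in limma). With ribociclib 300, 4 were higher and 1 was lower, where 0.999% of all genes were called higher and 2.74% lower. Tsc22d2, a sister gene of Tsc22d3, was 7.07-fold higher (2.82, SE 0.55, adjusted p = 0.0122), Klf6 2.46-fold higher (0.0263) and Klf10 2.25-fold higher (0.00408), while Sgk3, a sister kinase of Sgk1, was 3.52-fold lower (-1.82, SE 0.33, adjusted p = 0.0081, all in limma). Klf10 was the 1 relative called with abemaciclib 36, 2.58-fold higher (adjusted p = 0.00188 in limma), where 2.08% of all genes were called. Between abemaciclib 120 and ribociclib 300, Fkbp4 was 4.29-fold higher with abemaciclib (adjusted p = 0.00108 in limma), in contrast to Fkbp5, whose difference was -0.00 in that comparison. No relative was called with palbociclib, where 0% of all genes were called at either dose.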
